A study of Mus musculus with 9 samples.

Results

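The 10 genes described here encode the T cell receptor (TCR) complex and the proteins that act next to it at the membrane: the CD3 chains Cd3d, Cd3e, Cd3g and Cd247, the surface receptors Cd4, Cd2 and Cd5, the kinases Lck and Zap70, and the adaptor Lat. They were chosen by function as a named list, with earlier results of these data known. All 10 were found among the 14912 rows of the table and all 10 passed the filter on low values. They were measured in CD4+ T cells of the mouse strain B6.Cg-Foxp3tm2(EGFP)Tch/J, labelled hemizygous for Foxp3<tm2Tch>, in which eGFP reports Foxp3, the transcription factor of regulatory T cells (Treg cells). Every group carried this reporter.

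There were 3 groups of 3 libraries. The mTO-iTreg libraries were CD4+ eGFP-positive cells sorted on day 5 of co-culture with mouse colorectal tumour organoids (small cultures that tumour cells build in a gel), with 20 U/ml of IL-2 and 1 µg/ml each of anti-CD3 and anti-CD28 antibody. The TGFβ-iTreg libraries held eGFP-positive CD4+ cells of day 5 as well, cultured with 10 ng/ml of TGFβ, 300 U/ml of IL-2 and the same 2 antibodies. The day 0 libraries were eGFP-negative CD4+ T cells before culture. Time in culture, antibody exposure and the eGFP gate therefore all differ between either cultured group and day 0 and cannot be told apart, and the cultured groups differ from each other in organoids, TGFβ and IL-2 together. The library codes of the mTO-iTreg group also have another form than those of the other groups. Xist, which female cells make, was higher in every mTO-iTreg library (314 to 401) than in any other library. It reached 212 in day 0 replicate 3 and 70.6 in TGFβ-iTreg replicate 3, and 0 to 3.51 in replicates 1 and 2 of these groups. These differences cannot be told apart from the culture conditions. Whether the libraries of a group come from different animals or cultures is not in the labels; p-values then cover only the spread among these samples, which may be technical. In bulk RNA, fewer cells of a type and less RNA per cell cannot be told apart.

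The TCR chains recognise a peptide on an MHC molecule but cannot signal alone. The CD3 chains carry the signalling motifs; Lck, brought close by the coreceptor CD4, phosphorylates them, ZAP-70 docks on the phosphorylated chains, and ZAP-70 in turn phosphorylates LAT, on which the calcium, Ras and NF-kB branches are assembled. Treg cells depend on this pathway for their development and their function.

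Library depth was 7551177, 7969853 and 7665711 counts for mTO-iTreg replicates 1, 2 and 3, 2078223, 7222895 and 9944952 for TGFβ-iTreg, and 3432420, 2267922 and 5328169 for day 0. Levels below are the authors' DESeq2-normalized counts, in which a library's counts are divided by its size factor; they come from a modified CEL-Seq protocol (reads near the 3′ end of transcripts) and are not per gene length, so they are compared between groups and not between genes. A gene was called changed when limma's adjusted p was under 0.05, with log2 changes computed on the normalized count plus 1. The 10 genes together took 0.439% to 0.545% of the normalized counts in mTO-iTreg libraries, 0.437% to 0.476% in TGFβ-iTreg libraries and 0.558% to 0.567% in day 0 libraries.

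Other features of the libraries moved with the groups. Mitochondrially encoded RNAs took 12.2% to 12.5% of normalized counts in mTO-iTreg, 10.4% to 12.3% in TGFβ-iTreg and 17.4% to 19.6% in day 0 libraries. Summed B cell markers (4 of 5 listed genes are in the table) reached 61.1 to 104 in mTO-iTreg, 30.6 to 69.2 in TGFβ-iTreg and 10.5 to 57.0 in day 0, with Ms4a1 near 0 in all 3 groups. Among them Cd79b, a chain of the B cell receptor, averaged 60.1 ± 12.3 in mTO-iTreg, 9.73 ± 5.24 in TGFβ-iTreg and 3.63 ± 3.69 in day 0 (SD, n = 3), higher in mTO-iTreg than in day 0 (adjusted p = 0.0012) and than in TGFβ-iTreg (adjusted p = 0.027). Myeloid and antigen-presenting markers (5 of 8) summed to 365 to 458 in mTO-iTreg, 120 to 221 in TGFβ-iTreg and 422 to 3423 in day 0, and day 0 replicate 3 held the highest sum, from H2-Ab1 at 2463 and Cd74 at 869. NK cell markers (3 of 4) summed to 4.65 to 8.18 in mTO-iTreg, 60.4 to 118 in TGFβ-iTreg and 199 to 548 in day 0, and Klrd1 averaged 3.72 in mTO-iTreg, 77.8 in TGFβ-iTreg and 360 in day 0. CD8 markers (2 of 2) gave 93.0 to 125 in mTO-iTreg, 115 to 148 in TGFβ-iTreg and 120 to 149 in day 0. Epithelial markers (4 of 7) gave 34.1 to 114 in mTO-iTreg, 127 to 138 in TGFβ-iTreg and 9.49 to 18.8 in day 0, with Krt18 and Vil1 at or near 0. Epcam averaged 48.1 in mTO-iTreg, 93.4 in TGFβ-iTreg and 10.5 in day 0, and Cdh1 14.3 in mTO-iTreg, 37.5 in TGFβ-iTreg and 2.46 in day 0. Both genes were higher in mTO-iTreg (adjusted p = 0.016 for Epcam and 0.023 for Cdh1) and in TGFβ-iTreg (0.0021 and 0.0039) than in day 0. Xist stood at 314, 398 and 401 in mTO-iTreg, at 0, 2.71 and 70.6 in TGFβ-iTreg and at 3.51, 0 and 212 in day 0. Rn45s, a ribosomal RNA precursor, stood at 53108 in mTO-iTreg replicate 1 and at 11085 and 7238 in replicates 2 and 3, and averaged 8933 in TGFβ-iTreg and 8196 in day 0. The part of these features in the results below was not tested. Without mTO-iTreg replicate 1 the members that changed numbered 3 higher and 5 lower in mTO-iTreg cells against day 0, 0 and 7 in TGFβ-iTreg cells against day 0, and 4 and 3 between the cultured groups, the counts given below for all libraries. Without day 0 replicate 3 the count of members that changed in mTO-iTreg cells against day 0 was 2 higher and 5 lower, in TGFβ-iTreg cells against day 0 it was 0 higher and 7 lower, and between the cultured groups it was 4 higher and 3 lower. Over all tested rows, 1992 were then called higher in mTO-iTreg cells against day 0, beside 2126 with all libraries.

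Relative to day 0, 3 of the 10 genes rose in mTO-iTreg cells (Cd2, Zap70 and Cd4) and 5 fell (Lck, Cd3e, Cd3g, Cd5 and Lat). Over all 10983 tested rows, 33.9% were called in that comparison, 19.4% higher and 14.5% lower. Against the same day 0 libraries, none of the 10 rose in TGFβ-iTreg cells and 7 fell (Cd4, Cd247, Cd3g, Cd5, Lck, Cd3d and Cd2), where 18.6% of all rows were called, 9.78% higher and 8.8% lower. Set directly against TGFβ-iTreg cells, mTO-iTreg cells had 4 genes higher (Cd4, Cd2, Zap70 and Cd247) and 3 lower (Lat, Cd3e and Lck), where 26.6% of all rows were called, 14.9% higher and 11.8% lower. The median log2 change of the 10 genes was -0.47 in mTO-iTreg against day 0, -0.62 in TGFβ-iTreg against day 0 and 0.07 in mTO-iTreg against TGFβ-iTreg, beside 0.09, -0.02 and 0.13 over all tested rows. At an unadjusted p under 0.05 the count of members higher in TGFβ-iTreg cells was also 0, and limma-voom on recovered counts gave 0 too.

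**Figure D1:**
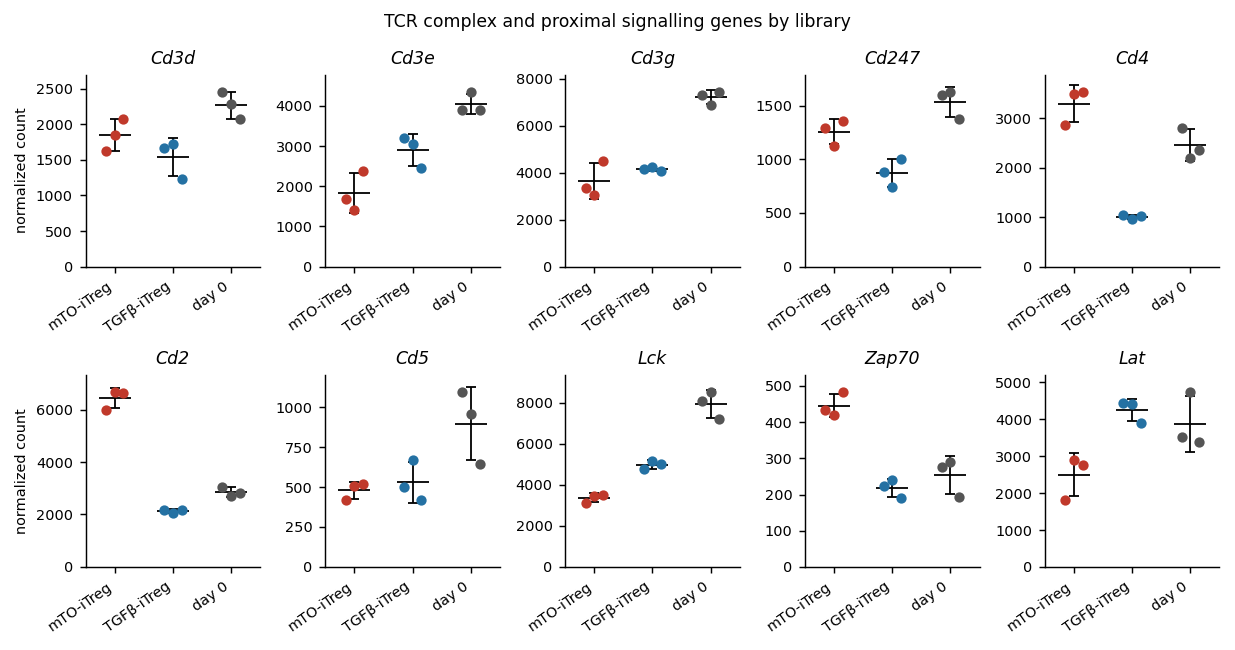
Normalized counts (vertical axes, starting at 0) of the 10 genes in each library; each point is 1 library, the horizontal bar is the group mean and the whiskers are 1 SD (n = 3). Lck and Cd3g lie below every day 0 library in both cultured groups, whereas Cd2 lies between 5991 and 6658 in mTO-iTreg libraries, above every library of the other 2 groups.

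CD3 chains. CD3δ, CD3γ and CD3ε form the dimers that flank the TCR, and CD3ζ, made from Cd247, is the dimer with the longest signalling tail. Cd3e had 1693, 1416 and 2379 normalized counts in mTO-iTreg libraries, 3195, 3063 and 2451 in TGFβ-iTreg libraries and 3888, 4347 and 3911 in day 0 libraries. The 3 groups did not overlap, with mTO-iTreg lowest and day 0 highest. Cd3e was 2.21-fold lower in mTO-iTreg cells than at day 0 (log2 change -1.18 ± 0.17 (SE), adjusted p = 0.00013) and 1.59-fold lower than in TGFβ-iTreg cells (-0.69 ± 0.17, adjusted p = 0.0082; 0.07 with no variance trend). TGFβ-iTreg cells had a log2 change of -0.49 ± 0.17 against day 0, which missed the threshold (adjusted p = 0.06; 0.021 to 0.32 over the alternatives). It passed the threshold at 0.026 in a fit of only these 2 groups, without mTO-iTreg replicate 2 at 0.036 and without mTO-iTreg replicate 3 at 0.021; the mTO-iTreg libraries enter through the shared estimate of the spread.

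Cd3g stood at 3343, 3052 and 4509 in mTO-iTreg, 4152, 4258 and 4066 in TGFβ-iTreg and 7332, 6900.3 and 7445 in day 0 libraries. Both cultured groups were below every day 0 library and overlapped each other. The fall was 1.99-fold in mTO-iTreg cells (log2 change -1.01 ± 0.13, adjusted p = 6.3e-05) and 1.74-fold in TGFβ-iTreg cells (-0.80 ± 0.13, adjusted p = 0.001). Between the cultured groups the log2 difference was -0.21 with a 95% interval of -0.50 to 0.07 (adjusted p = 0.25); it passed the threshold without mTO-iTreg replicate 3, the highest of its group (adjusted p = 0.026).

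Cd3d encodes the partner of CD3ε in the other heterodimer. Its levels were 1621, 1843 and 2077 in mTO-iTreg, 1668, 1726 and 1233 in TGFβ-iTreg and 2453, 2279 and 2068 in day 0 libraries. The highest mTO-iTreg library reached just above the lowest day 0 library, while TGFβ-iTreg stayed below day 0. Cd3d was 1.47-fold lower in TGFβ-iTreg cells than at day 0 (log2 change -0.57 ± 0.15, adjusted p = 0.017), a call that was lost under 5 of 22 alternatives, among them leaving out TGFβ-iTreg replicate 3 (0.071) or day 0 replicate 1 (0.068). In mTO-iTreg cells the log2 change of Cd3d was -0.30 ± 0.15 against day 0 (adjusted p = 0.13) and 0.27 ± 0.15 against TGFβ-iTreg cells (adjusted p = 0.2).

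Cd247 had the opposite order of the cultured groups from Cd3e. Its levels were 1292, 1125 and 1352 in mTO-iTreg, 878, 738 and 999 in TGFβ-iTreg and 1600.0, 1626 and 1373 in day 0 libraries, with no overlap between any groups. It was 1.76-fold lower in TGFβ-iTreg cells than at day 0 (log2 change -0.82 ± 0.14, adjusted p = 0.0014) and 1.44-fold higher in mTO-iTreg than in TGFβ-iTreg cells (0.53 ± 0.14, adjusted p = 0.014). That last call was lost without mTO-iTreg replicate 3 (0.052), without TGFβ-iTreg replicate 2 (0.064) and with no variance trend (0.079). In mTO-iTreg cells the log2 change against day 0 was -0.29 ± 0.14 (adjusted p = 0.13). The last 12124 bases of Cd247 overlap Pou2f1 on the opposite strand, and strand handling is not given in the sources used here, so reads of the 2 genes could be mixed; Pou2f1 averaged 155 in mTO-iTreg, 93.4 in TGFβ-iTreg and 152 in day 0 libraries and was called in no comparison.

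Summed over the 4 CD3 genes, mTO-iTreg libraries held 7949, 7435 and 10317 normalized counts, TGFβ-iTreg libraries 9893, 9784 and 8750, and day 0 libraries 15272, 15153 and 14796. The cultured groups overlapped and both lay below day 0. The constant chains of the receptor itself (Trac, Trbc1, Trbc2 and the gamma and delta constant genes) had no rows under these symbols in the table.

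The stretches of 250 bases just before the annotated starts are shown for the 4 CD3 genes and for Lck and Zap70, because 3 of the CD3 genes lie side by side and the 2 kinases moved in opposite directions in mTO-iTreg cells. They come from RefSeq on GRCm38.p6, which held starts for 8 of the 10 genes (11 starts in all); Cd2 and Cd4 were not matched. Each is written 5′ to 3′ on the gene's own strand, and capitals mark matches, on either strand, to 6 motifs. ETS factors are known to bind AGGAAG, RUNX factors bind TGTGGT and TCF/LEF factors bind CTTTGA. The other motifs were an E-box read as CAGGTG, part of the CRE site read as TGACGT, and the TATA box read as TATAAA. In Zap70 the TCF/LEF and CRE matches overlap.
Cd3g, chr9:44980432-44980681, minus strand: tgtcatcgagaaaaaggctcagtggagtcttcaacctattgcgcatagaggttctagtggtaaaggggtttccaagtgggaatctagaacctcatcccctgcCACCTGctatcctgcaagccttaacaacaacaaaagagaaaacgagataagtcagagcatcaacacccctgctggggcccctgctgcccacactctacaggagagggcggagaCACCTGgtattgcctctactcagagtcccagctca
Cd3d, chr9:44981536-44981785, plus strand: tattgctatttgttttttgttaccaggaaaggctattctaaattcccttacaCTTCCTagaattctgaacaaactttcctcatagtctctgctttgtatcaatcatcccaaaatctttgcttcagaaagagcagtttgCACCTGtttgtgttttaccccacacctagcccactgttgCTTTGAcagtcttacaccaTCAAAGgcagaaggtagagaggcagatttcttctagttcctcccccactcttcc
Cd3e, chr9:45009612-45009861, minus strand: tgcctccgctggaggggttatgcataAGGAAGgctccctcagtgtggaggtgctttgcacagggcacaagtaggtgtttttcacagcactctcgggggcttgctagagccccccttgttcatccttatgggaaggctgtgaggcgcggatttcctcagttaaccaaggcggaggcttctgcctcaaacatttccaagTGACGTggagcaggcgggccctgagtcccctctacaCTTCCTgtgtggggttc
Cd247, chr1:165788431-165788680, plus strand: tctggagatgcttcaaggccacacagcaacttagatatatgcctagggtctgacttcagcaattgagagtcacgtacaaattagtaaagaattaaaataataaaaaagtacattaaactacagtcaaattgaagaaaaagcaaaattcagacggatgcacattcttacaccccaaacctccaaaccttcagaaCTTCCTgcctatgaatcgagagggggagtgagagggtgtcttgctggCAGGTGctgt
Lck first start, chr4:129573642-129573891, minus strand: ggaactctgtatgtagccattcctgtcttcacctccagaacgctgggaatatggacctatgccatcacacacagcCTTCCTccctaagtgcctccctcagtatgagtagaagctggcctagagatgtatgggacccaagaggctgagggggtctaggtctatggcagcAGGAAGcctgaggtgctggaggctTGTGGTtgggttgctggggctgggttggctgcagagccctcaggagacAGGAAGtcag
Zap70 first start, chr1:36761548-36761797, plus strand: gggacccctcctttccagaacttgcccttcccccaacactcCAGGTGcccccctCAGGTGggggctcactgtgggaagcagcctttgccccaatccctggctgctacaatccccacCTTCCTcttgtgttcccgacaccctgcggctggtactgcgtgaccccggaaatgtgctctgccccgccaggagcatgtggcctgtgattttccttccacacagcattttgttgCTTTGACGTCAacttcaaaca

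The ETS letters were found before 9 of the 11 starts (7 of 8 genes), where 29.5% of the 32851 mouse promoters of the same length in the table hold them. E-box letters were found before 7 of the 11 starts (6 of 8 genes), against 17.2% of all promoters. RUNX, TCF/LEF and CRE letters were each found before 2 of the 11 starts, with shares of 14.1%, 13.8% and 6.47% over all promoters, and TATAAA before 0, where 12.4% of all promoters hold it. Cd3g was the CD3 gene without the ETS letters in this window; it has 2 E-box matches instead, and Cd3e has 2 ETS matches and 1 CRE match. Lck and Zap70 have more than 1 start each among the 11. Bases just after the second Zap70 start were not found in a GENCODE transcript of the gene. That start holds ETS and RUNX matches and is counted above. All of these are matches of letters and show no binding.

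On GRCm38 the CD3 genes of chromosome 9 form a cluster. Cd3g (9:44969572-44980431, minus strand) and Cd3d (9:44981786-44987339, plus strand) run away from each other with starts 1355 bases apart, and Cd3e (9:44998740-45009627, minus strand) follows 11401 bases beyond Cd3d. Of the divergent pair, Cd3g fell in mTO-iTreg cells while Cd3d did not pass the test; a difference between the 2 genes was not tested. Next to Cd3g, on the far side from Cd3d, lies Ube4a, a ubiquitin ligase gene. It averaged 36.3 ± 11.2 in mTO-iTreg, 74.3 ± 6.91 in TGFβ-iTreg and 121 ± 6.76 in day 0 libraries (SD, n = 3) and was lower in mTO-iTreg cells than at day 0 (adjusted p = 0.00086) and than in TGFβ-iTreg cells (adjusted p = 0.027).

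**Figure D2:**
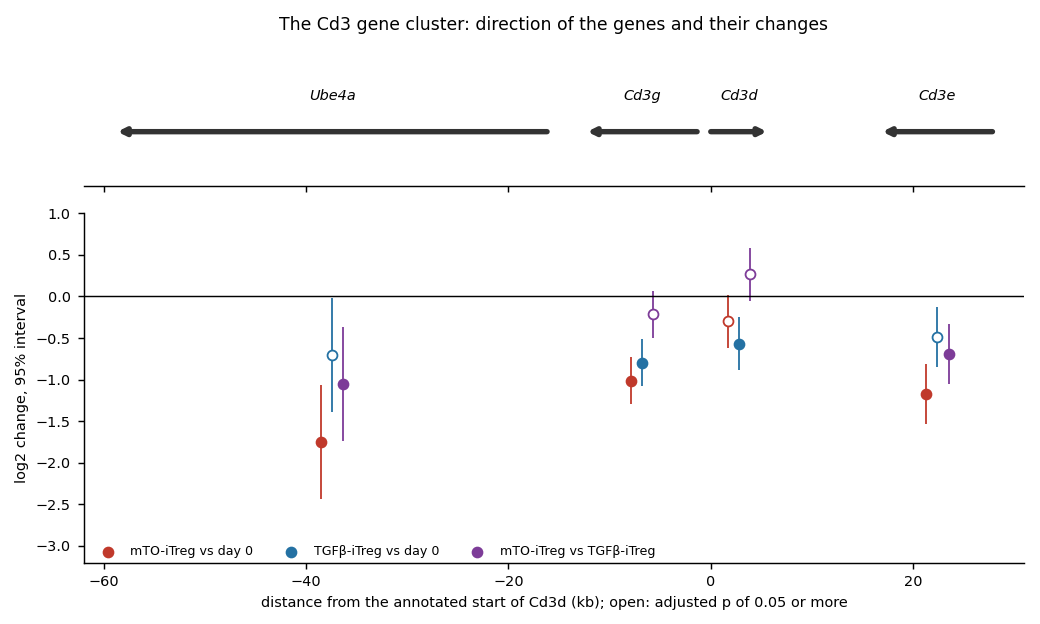
Top, direction and extent of Ube4a, Cd3g, Cd3d and Cd3e against the distance from the start of Cd3d (kb); bottom, log2 change with its 95% interval for each gene in the 3 comparisons, filled where the adjusted p is under 0.05. Cd3g and Cd3e have filled points near -1 for mTO-iTreg against day 0, and the point of Cd3d between them is open at -0.30.

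Ratios between chains in 1 library do not depend on the size factor. Cd247 to Cd3e was 0.763, 0.794 and 0.568 in mTO-iTreg, 0.275, 0.241 and 0.407 in TGFβ-iTreg and 0.412, 0.374 and 0.351 in day 0 libraries. Every mTO-iTreg library was above every other library. Cd3d to Cd3e was 0.958, 1.30 and 0.873 in mTO-iTreg, 0.522, 0.564 and 0.503 in TGFβ-iTreg and 0.631, 0.524 and 0.529 in day 0, again with mTO-iTreg apart. For Cd3g to Cd3e the values were 1.97, 2.16 and 1.90 in mTO-iTreg, 1.30, 1.39 and 1.66 in TGFβ-iTreg and 1.89, 1.59 and 1.90 in day 0 libraries, so only the cultured groups did not overlap. With 3 libraries against 3, an exact two-sided permutation test cannot go below 0.10. It gave that value for mTO-iTreg against day 0 and against TGFβ-iTreg in Cd247 to Cd3e (log2 differences 0.89 and 1.22) and in Cd3d to Cd3e (0.88 and 0.96), and for mTO-iTreg against TGFβ-iTreg in Cd3g to Cd3e (0.48), each 0.18 after adjustment over the 9 comparisons by the exact permutation test. The other 4 comparisons gave exact permutation p of 0.2 to 0.5.

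Coreceptor and adhesion receptors. Cd4, whose protein binds MHC class II and carries Lck to the receptor, separated the cultured groups. It had 2866, 3482 and 3533 normalized counts in mTO-iTreg, 1043, 970 and 1014 in TGFβ-iTreg and 2812, 2196 and 2366 in day 0 libraries. TGFβ-iTreg libraries lay far below the rest, and the lowest mTO-iTreg library lay just above the highest day 0 library. Cd4 was 3.26-fold higher in mTO-iTreg than in TGFβ-iTreg cells (log2 change 1.70 ± 0.13, adjusted p = 1.6e-06) and 2.44-fold lower in TGFβ-iTreg cells than at day 0 (-1.28 ± 0.13, adjusted p = 2.1e-05). The 1.34-fold higher level in mTO-iTreg cells than at day 0 was called (0.42 ± 0.13, adjusted p = 0.02) but lost under 6 of 22 alternatives (0.0016 to 0.11), which included leaving out mTO-iTreg replicate 2 (0.065) or 3 (0.073) or day 0 replicate 2 (0.082) or 3 (0.057).

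Cd2 encodes an adhesion receptor that binds CD48 in mice and strengthens contact with other cells. Its levels were 5991, 6658 and 6634 in mTO-iTreg, 2152, 2058 and 2174 in TGFβ-iTreg and 3051, 2709.6 and 2806 in day 0 libraries. The groups did not overlap, and mTO-iTreg stood highest. Cd2 rose 2.25-fold in mTO-iTreg cells against day 0 (log2 change 1.17 ± 0.10, adjusted p = 2.3e-06) and was 3.02-fold higher than in TGFβ-iTreg cells (1.59 ± 0.10, adjusted p = 3.3e-07). TGFβ-iTreg cells were 1.34-fold lower than day 0 (-0.42 ± 0.10, adjusted p = 0.011), which was lost under 5 of 22 alternatives, among them equal totals (0.26) and leaving out day 0 replicate 1 (0.052).

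Cd5 encodes a scavenger-family receptor that dampens TCR signals and is known to rise with their strength. It had 420.1, 504 and 516 normalized counts in mTO-iTreg, 499, 671 and 419 in TGFβ-iTreg and 1093, 957 and 642 in day 0 libraries. The mTO-iTreg libraries were all below day 0, while the highest TGFβ-iTreg library passed the lowest day 0 library. Cd5 was 1.87-fold lower in mTO-iTreg cells than at day 0 (log2 change -0.87 ± 0.21, adjusted p = 0.0063). In TGFβ-iTreg cells it was 1.69-fold lower (-0.75 ± 0.21, adjusted p = 0.026), and this call was lost under 10 of 22 alternatives (0.0064 to 0.17), including without TGFβ-iTreg replicate 1 (0.077) or 3 (0.11) and without day 0 replicate 1 (0.11) or 2 (0.083). The cultured groups differed by -0.12 with a 95% interval of -0.58 to 0.34. Cd6, the related receptor that is the nearest annotated gene to Cd5 on its right, averaged 564 ± 51.4 in mTO-iTreg, 1056 ± 208 in TGFβ-iTreg and 1723 ± 267 in day 0 libraries (SD, n = 3), lower in mTO-iTreg than in day 0 (log2 change -1.60 ± 0.17, adjusted p = 1.2e-05) and than in TGFβ-iTreg cells (-0.89 ± 0.17, adjusted p = 0.0018).

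Kinases. Lck, the Src-family kinase that starts the cascade, had 3110.1, 3471 and 3505 normalized counts in mTO-iTreg, 4767, 5189 and 5021 in TGFβ-iTreg and 8104, 8516 and 7211 in day 0 libraries. The groups formed 3 separate levels, and the largest SD within a group was 667. Lck fell 2.36-fold in mTO-iTreg cells (log2 change -1.24 ± 0.10, adjusted p = 1.9e-06) and 1.59-fold in TGFβ-iTreg cells (-0.67 ± 0.10, adjusted p = 0.00071) against day 0. It was 1.48-fold lower in mTO-iTreg than in TGFβ-iTreg cells (-0.57 ± 0.10, adjusted p = 0.0014), and all 3 calls held under the 22 alternatives run.

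Zap70, the kinase that docks on the phosphorylated CD3 tails, went the other way in mTO-iTreg cells. It had 434, 420.0 and 482 normalized counts in mTO-iTreg, 224, 241 and 189.7 in TGFβ-iTreg and 275, 290.3 and 193 in day 0 libraries. The mTO-iTreg libraries stood above all others, and the other groups overlapped. Zap70 was 1.76-fold higher in mTO-iTreg cells than at day 0 (log2 change 0.83 ± 0.20, adjusted p = 0.005) and 2.04-fold higher than in TGFβ-iTreg cells (1.03 ± 0.20, adjusted p = 0.0018). In TGFβ-iTreg cells the log2 change against day 0 was -0.20 with a 95% interval of -0.62 to 0.23, and it turned to 0.05 when libraries were scaled to equal totals.

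The other 3 ratios were chosen after the values were seen and are given as descriptions. Lck to Zap70 was 7.16, 8.27 and 7.27 in mTO-iTreg, 21.3, 21.6 and 26.5 in TGFβ-iTreg and 29.4, 29.3 and 37.3 in day 0 libraries. Lck to Cd4 was 1.09, 0.997 and 0.992 in mTO-iTreg, 4.57, 5.35 and 4.95 in TGFβ-iTreg and 2.88, 3.88 and 3.05 in day 0 libraries. In both ratios the mTO-iTreg libraries were the lowest. Zap70 to Cd247 averaged 0.355 in mTO-iTreg, 0.257 in TGFβ-iTreg and 0.164 in day 0 libraries. As ratios of counts they hold within a library only and are not ratios of molecules.

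**Figure D3:**
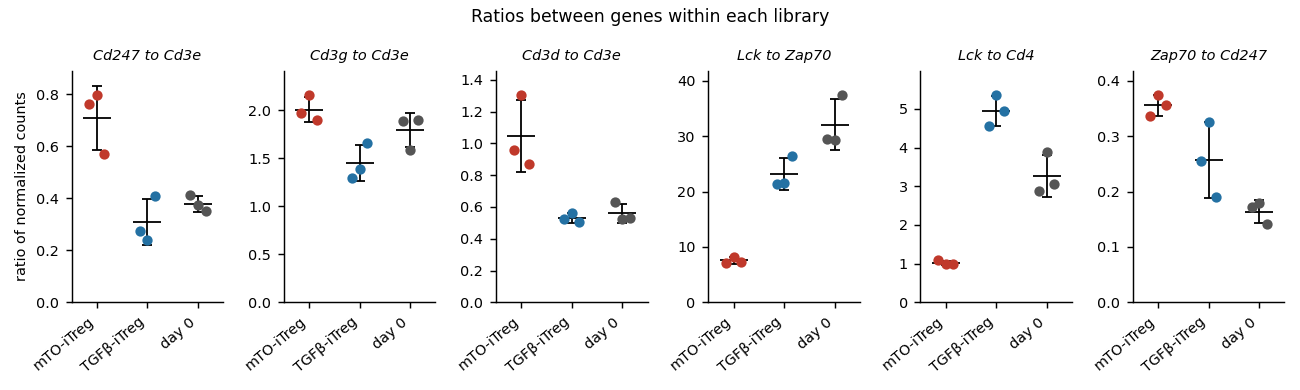
Ratios of normalized counts between 2 genes in each library (vertical axes, starting at 0); points are libraries, the horizontal bar is the group mean and whiskers are 1 SD (n = 3). In the Lck to Zap70 panel the mTO-iTreg libraries lie between 7.16 and 8.27 and the day 0 libraries between 29.3 and 37.3.

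Adaptor. LAT, the membrane adaptor on which the downstream branches are assembled, was lowest in mTO-iTreg cells at the RNA level. Lat had 1822, 2906 and 2765 normalized counts in mTO-iTreg, 4429.7, 4421 and 3908 in TGFβ-iTreg and 3507, 4731 and 3378 in day 0 libraries. The mTO-iTreg libraries lay below the other groups, which overlapped. Lat was 1.70-fold lower in mTO-iTreg than in TGFβ-iTreg cells (log2 change -0.80 ± 0.17, adjusted p = 0.0043; 0.05 with no variance trend) and 1.55-fold lower than at day 0 (-0.65 ± 0.17, adjusted p = 0.011). The second call was lost under 4 of 22 alternatives (0.006 to 0.078), one of them without day 0 replicate 2 (0.054). TGFβ-iTreg cells differed from day 0 by 0.15 with a 95% interval of -0.22 to 0.52. Spns1, 490 bases from Lat and a lysosomal lipid transporter gene, averaged 27.9 ± 4.68 in mTO-iTreg, 100.3 ± 32.6 in TGFβ-iTreg and 72.3 ± 21.5 in day 0 libraries (SD, n = 3) and was also lower in mTO-iTreg than in TGFβ-iTreg cells (adjusted p = 0.0046) and day 0 cells (adjusted p = 0.019).

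**Figure D4:**
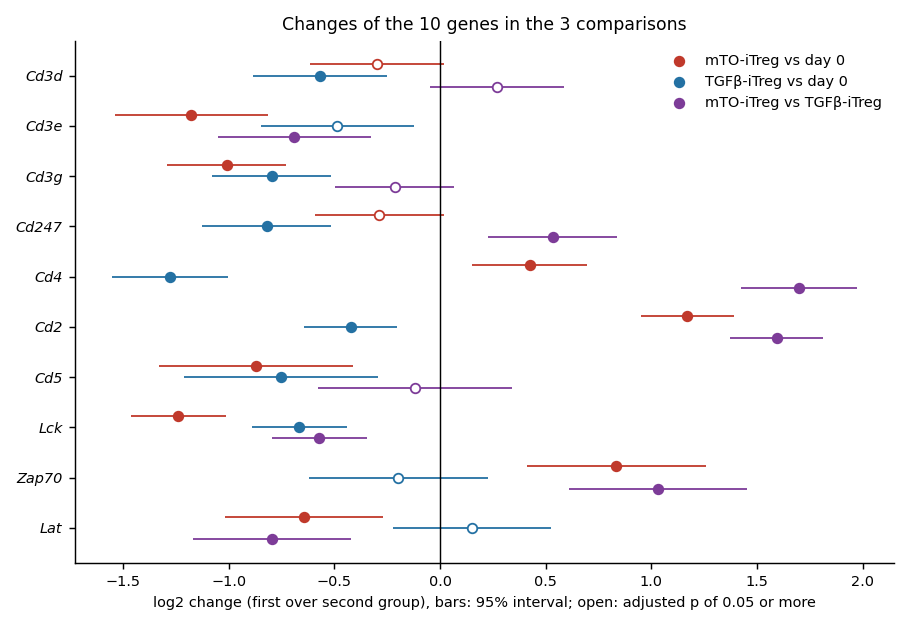
Log2 change (horizontal axis, first over second group) of each of the 10 genes in the 3 comparisons, with 95% intervals and filled points where the adjusted p is under 0.05. For mTO-iTreg against TGFβ-iTreg, Cd4 lies at 1.70 and Cd2 at 1.59 on the right, and Lat at -0.80 on the left.

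The order of the levels divided the 10 genes. In mTO-iTreg cells Cd3e, Lck and Lat were lower than in both other groups, and Cd2, Zap70 and Cd4 were higher than in both. Cd4, Cd2 and Cd247 were lower in TGFβ-iTreg cells than in both other groups. Cd3g and Cd5 were lower in both cultured groups than at day 0 with no called difference between them, and Cd3d was called only in TGFβ-iTreg against day 0. In 4 genes (Cd4, Cd2, Zap70 and Lat) the changes against day 0 had opposite signs in the cultured groups and the direct comparison of these groups was called, which held for 14% of all tested rows; the changes of Zap70 and Lat in TGFβ-iTreg cells were not called themselves.

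Of 56 further genes of the pathway in the table, 5 were higher and 21 lower in mTO-iTreg cells than at day 0 (median log2 change -0.39), 4 were higher and 17 lower in TGFβ-iTreg cells than at day 0 (-0.35), and 12 were higher and 12 lower in mTO-iTreg than in TGFβ-iTreg cells (0.07). The shares called were 46.4%, 37.5% and 42.9%, beside 33.9%, 18.6% and 26.6% over all tested rows. In mTO-iTreg cells against day 0 the counts were 12 higher and 15 lower with equal totals, and 10 and 18 when scaled without mitochondrial genes and Rn45s. Over all tested rows that comparison had 2126 higher and 1597 lower as reported. With equal totals it had 2739 and 1141, and without mitochondrial genes and Rn45s 2449 and 1325. Without mTO-iTreg replicate 3 the 21 lower genes became 13 and the 5 higher became 3, and without day 0 replicate 1 the 17 lower genes of TGFβ-iTreg cells became 11. All tested rows gave 1348 lower and 1686 higher without mTO-iTreg replicate 3. In TGFβ-iTreg against day 0 they gave 674 lower without day 0 replicate 1, beside 966 with all libraries.

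Of the 5 other proximal kinases, 4 were lower in mTO-iTreg cells than at day 0 (80% called, beside 33.9% of all rows) and 2 in TGFβ-iTreg cells (40% beside 18.6%). Fyn, the Src-family kinase related to Lck, averaged 693 ± 144 normalized counts in mTO-iTreg, 1259 ± 40.9 in TGFβ-iTreg and 1909 ± 139 in day 0 libraries (SD, n = 3). It fell 2.75-fold in mTO-iTreg cells against day 0 (adjusted p = 7.4e-06) and was 1.82-fold lower than in TGFβ-iTreg cells (adjusted p = 0.00072), the same order as Lck. Tec, a kinase of another family, averaged only 7.89 ± 9.76 in mTO-iTreg, 27.7 ± 28.6 in TGFβ-iTreg and 38.5 ± 13.5 in day 0 libraries, and its call against day 0 (adjusted p = 0.034) was lost under 8 of 22 alternatives, including without each day 0 library and without mTO-iTreg replicate 2 or 3 (0.058 to 0.13).

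Among 16 adaptors, scaffolds and surface regulators, 3 were higher and 8 lower in mTO-iTreg cells than at day 0 (68.8% called, beside 33.9% of all rows), and 1 was higher and 7 lower in TGFβ-iTreg cells (50% beside 18.6%). Themis, a T cell adaptor that binds the phosphatase SHP-1, averaged 52.3 ± 17.8 in mTO-iTreg, 49.9 ± 8.41 in TGFβ-iTreg and 250 ± 70.3 in day 0 libraries (SD, n = 3), 4.79-fold lower in mTO-iTreg cells (adjusted p = 0.00023) and 5.02-fold lower in TGFβ-iTreg cells (adjusted p = 0.00057) than at day 0. Trat1, which encodes a TCR-associated transmembrane adaptor, averaged 23.2 ± 17.5 in mTO-iTreg, 15.02 ± 7.72 in TGFβ-iTreg and 96.4 ± 24.5 in day 0 libraries and was lower than at day 0 in mTO-iTreg (adjusted p = 0.016) and TGFβ-iTreg cells (adjusted p = 0.013), calls lost without mTO-iTreg replicate 3 (0.067), without TGFβ-iTreg replicate 2 (0.058) and, in both comparisons, without day 0 replicate 1 (0.059 and 0.053). Sh2d2a, the adaptor TSAd that binds Lck, had 947 ± 268 in mTO-iTreg, 864 ± 68.4 in TGFβ-iTreg and 402 ± 12.6 in day 0 libraries, and it rose in mTO-iTreg (adjusted p = 0.00017) and in TGFβ-iTreg cells (adjusted p = 0.00081).

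Other adaptors and surface regulators differed between the cultured groups. Fyb, which encodes the adaptor ADAP that links the receptor to integrins, averaged 1644 ± 124 in mTO-iTreg, 548 ± 80.7 in TGFβ-iTreg and 1101 ± 149 in day 0 libraries (SD, n = 3) and was 3.00-fold higher in mTO-iTreg than in TGFβ-iTreg cells (adjusted p = 7.4e-06). Tespa1, which takes part in calcium signalling from the receptor, averaged 135 ± 43.5 in mTO-iTreg, 22.3 ± 4.09 in TGFβ-iTreg and 225 ± 44.7 in day 0 libraries and was 6.07-fold higher in mTO-iTreg than in TGFβ-iTreg cells (adjusted p = 9.9e-05). Nck2, an adaptor to the actin skeleton, averaged 57.0 ± 8.32 in mTO-iTreg, 14.4 ± 5.01 in TGFβ-iTreg and 21.97 ± 10.2 in day 0 libraries; it was higher in mTO-iTreg than in TGFβ-iTreg cells (adjusted p = 0.014; 0.055 without mTO-iTreg replicate 1), and its call against day 0 (adjusted p = 0.048) was lost under 15 of 22 alternatives (up to 0.15), among them without any 1 of mTO-iTreg replicates 1 to 3. The related Nck1 averaged 79.5 ± 15.7 in mTO-iTreg, 111 ± 40.7 in TGFβ-iTreg and 168 ± 30.9 in day 0 libraries. Nck1 was lower in mTO-iTreg cells than at day 0 (adjusted p = 0.014), with no called difference between the cultured groups. Ptprc, which encodes the phosphatase CD45 that keeps Lck active, averaged 3000 ± 148 in mTO-iTreg, 1557 ± 128 in TGFβ-iTreg and 3342 ± 184 in day 0 libraries. Ptprc was 2.15-fold lower in TGFβ-iTreg cells than at day 0 (adjusted p = 2.1e-05) and 1.93-fold higher in mTO-iTreg than in TGFβ-iTreg cells (adjusted p = 3.7e-05). Lcp2, the SLP-76 partner of LAT, averaged 1625 ± 153 in mTO-iTreg, 2062 ± 145 in TGFβ-iTreg and 2387 ± 179 in day 0 libraries and was 1.47-fold lower in mTO-iTreg cells than at day 0 (adjusted p = 0.0025). Its call against TGFβ-iTreg cells (adjusted p = 0.045) was lost under 10 of 22 alternatives (up to 0.27), including without mTO-iTreg replicate 2 or 3, TGFβ-iTreg replicate 1 or 2 or day 0 replicate 1.

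Of 16 inhibitors of proximal signalling, 2 were higher and 4 lower in each cultured group than at day 0, and 3 were higher and 1 lower in mTO-iTreg than in TGFβ-iTreg cells. The shares called were 37.5% in mTO-iTreg and 37.5% in TGFβ-iTreg cells against day 0, beside 33.9% and 18.6% of all rows, and 25% between the cultured groups, beside 26.6%. Dgkz, a diacylglycerol kinase that ends the Ras branch, averaged 1354 ± 61.8 in mTO-iTreg, 514 ± 69.3 in TGFβ-iTreg and 656 ± 121 in day 0 libraries (SD, n = 3), 2.06-fold higher in mTO-iTreg cells than at day 0 (adjusted p = 0.00018). Dgka, the other diacylglycerol kinase gene of the list, averaged 3602 ± 77.6 in mTO-iTreg, 3386 ± 307 in TGFβ-iTreg and 6741 ± 871 in day 0 libraries. It went the other way, 1.87-fold lower in mTO-iTreg cells than at day 0 (adjusted p = 6.6e-05). Ubash3b, a phosphatase that acts on ZAP-70, averaged 177 ± 35.3 in mTO-iTreg, 485 ± 90.3 in TGFβ-iTreg and 150 ± 50.4 in day 0 libraries and was 3.23-fold higher in TGFβ-iTreg cells than at day 0 (adjusted p = 0.0005) and 2.73-fold lower in mTO-iTreg than in TGFβ-iTreg cells (adjusted p = 0.001). Csk, the kinase that holds Lck inactive, averaged 1493 ± 155 in mTO-iTreg, 1322 ± 294 in TGFβ-iTreg and 1886 ± 21.1 in day 0 libraries; its lower level in TGFβ-iTreg cells than at day 0 (adjusted p = 0.025) was lost under 9 of 22 alternatives, including without TGFβ-iTreg replicate 1 or 3 and without each day 0 library (0.053 to 0.11). Dok1, an adaptor that recruits the Ras inhibitor RasGAP, averaged 90.0 ± 4.78 in mTO-iTreg, 116 ± 27.0 in TGFβ-iTreg and 48.4 ± 21.7 in day 0 libraries. It was higher in mTO-iTreg (adjusted p = 0.048) and in TGFβ-iTreg cells (adjusted p = 0.02) than at day 0, with the calls lost under 13 of 22 alternatives (up to 0.16; leaving out any 1 library except day 0 replicate 2) and 4 of 22 (up to 0.081; TGFβ-iTreg replicate 1 or 2, day 0 replicate 1 or 3).

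In the calcium, Ras and NF-kB branches, 0 genes of 19 were higher and 5 lower in mTO-iTreg cells than at day 0, 1 was higher and 4 lower in TGFβ-iTreg cells than at day 0, and 3 were higher and 5 lower in mTO-iTreg than in TGFβ-iTreg cells. The shares called were 26.3%, 26.3% and 42.1%, beside 33.9%, 18.6% and 26.6% of all rows. Ppp3r1, the regulatory subunit of calcineurin, averaged 169 ± 44.4 in mTO-iTreg, 607 ± 78.4 in TGFβ-iTreg and 620 ± 114 in day 0 libraries (SD, n = 3), 3.66-fold lower in mTO-iTreg cells than at day 0 (adjusted p = 1.8e-05). Orai1, the pore of the store-operated calcium channel, averaged 490 ± 53.3 in mTO-iTreg, 1063 ± 153 in TGFβ-iTreg and 1049 in day 0 libraries (949 to 1150) and was 2.17-fold lower in mTO-iTreg than in TGFβ-iTreg cells (adjusted p = 0.00014). Stim2, a sensor of calcium stores, averaged 256 ± 26.2 in mTO-iTreg, 725 ± 79.6 in TGFβ-iTreg and 371 ± 67.9 in day 0 libraries, 1.95-fold higher in TGFβ-iTreg cells than at day 0 (adjusted p = 0.0021) and 2.83-fold lower in mTO-iTreg than in TGFβ-iTreg cells (adjusted p = 4.9e-05). Itpr1, the receptor that releases those stores, averaged 161 ± 43.1 in mTO-iTreg, 46.5 ± 10.96 in TGFβ-iTreg and 93.0 ± 13.6 in day 0 libraries and was 3.47-fold higher in mTO-iTreg than in TGFβ-iTreg cells (adjusted p = 0.00095). Of its relatives, Itpr3 was lower in that comparison (76.0 ± 7.49 against 153 ± 26.8, adjusted p = 0.017), and Itpr2 was not called. Plcg1, the phospholipase recruited by LAT, was read too rarely to place, at 10.5 ± 4.71 in mTO-iTreg, 8.95 ± 5.45 in TGFβ-iTreg and 3.04 ± 3.60 in day 0 libraries, and its log2 change in mTO-iTreg cells against day 0 was 1.90 ± 0.89 (adjusted p = 0.12; 0.048 without day 0 replicate 1).

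**Figure D5:**
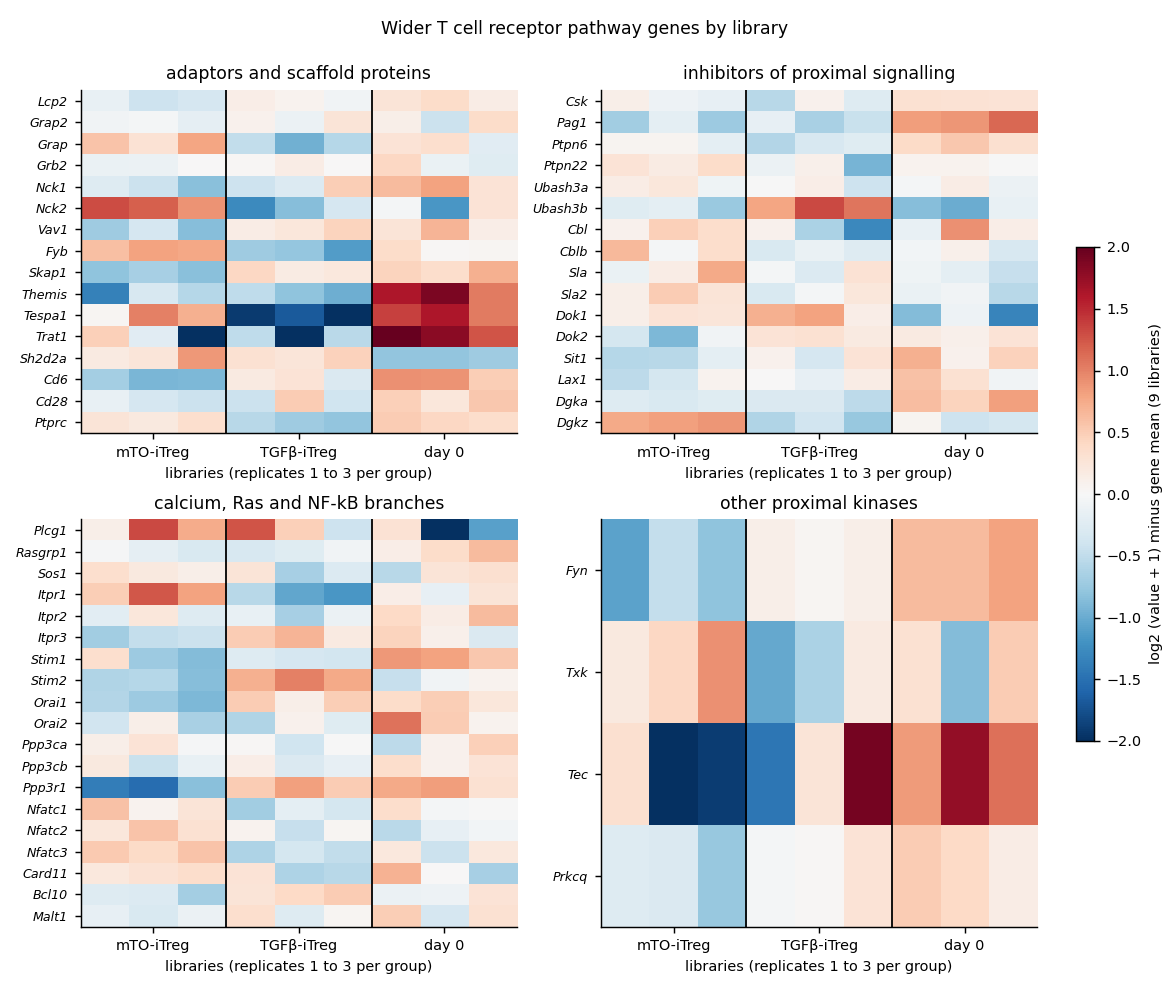
Log2 of the normalized count plus 1 of the further pathway genes reported here in each of the 9 libraries, minus the gene's mean over the libraries, with colours ending at 2 in either direction; columns are replicates 1 to 3 of each group. Themis is high in the 3 day 0 columns (250 on average), and Fyb is high in the mTO-iTreg columns (1644 on average) and low in the TGFβ-iTreg columns (548).

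Creg1, the nearest annotated gene to the left of Cd247 and a secreted glycoprotein gene, averaged 349 ± 45.5 in mTO-iTreg, 122 ± 38.2 in TGFβ-iTreg and 160 ± 10.6 in day 0 libraries (SD, n = 3) and was higher in mTO-iTreg cells than in TGFβ-iTreg cells (adjusted p = 0.00038) and at day 0 (adjusted p = 0.0027).

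The 5 genes whose log2 levels were most like those of the CD3 sum over the 9 libraries, among 7418 candidates with a mean of at least 20 in every group, were Rpl37a (Pearson's r 0.976), Rps21 (0.964), Uqcc (0.963), Actr3 (0.962) and Rassf2 (0.960). The libraries share their groups, so these values describe the difference from day 0 and carry no p. Rpl37a, a ribosomal protein gene, averaged 13161 in mTO-iTreg, 14136 in TGFβ-iTreg and 19245 in day 0 libraries. Actr3, a subunit of the actin-branching Arp2/3 complex, averaged 1555 in mTO-iTreg, 2013 in TGFβ-iTreg and 3566 in day 0 libraries.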

How the data were processed

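The deposited table holds normalized counts, which the authors made by dividing the counts of each library by a DESeq2 size factor; BWA, DESeq2 and mm10 come from the submitters' processing notes, and for versions, counting and strand handling, the sources used here say nothing. Dividing each library by the value of 1 count (0.494 to 2.69) recovered whole counts (100% of values, tolerance 0.1), whose sums are the depths given.

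Of 14912 rows (296 at 0 in every library), 10983 reached 5 in 3 or more of the 9 libraries and were fitted with limma 3.58.1 in R 4.3.3, which gives every adjusted p of a gene (3 group means, log2 of the value plus 1, variance trend, Benjamini-Hochberg over all rows, threshold 0.05), after a test on simulated data. Python 3.11.15 (pandas 2.3.3, numpy 2.4.6, matplotlib 3.10.9) made the tables and figures. Positions are GENCODE M21 on GRCm38. The 10 genes and all lists were chosen with earlier results of these data known. Named further genes were, per comparison, up to 4 called list members per direction with the largest log2 change and a mean of 20 or more in the group with the higher level, plus Fyn, Lcp2, Plcg1, Csk and Ptprc, the 5 genes most like the CD3 sum, and neighbours; some genes that the rule or the marker lists take in are counted but not reported here by name. The main fit did not pair samples sharing a replicate number. Deviations of such samples from their group means had correlations of -0.05 to 0.06. Xist was highest in replicate 3 of TGFβ-iTreg (70.6) and of day 0 (212). Whether samples with the same number share a source was not tested. Alternatives were pseudocounts, filters, scalings, 2-group fits, a replicate block, no variance trend, limma-voom on recovered counts and leaving libraries out.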

Additional observations from a re-analysis of the deposited data

Results flagged for a closer look

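For 4 of the 10 genes the change against day 0 had opposite signs in the cultured groups, and the direct comparison of mTO-iTreg with TGFβ-iTreg cells was called by limma. Over all 10983 tested rows, 1535 (14%) met both conditions. The log2 difference was 1.70 for Cd4, 1.59 for Cd2, 1.03 for Zap70 and -0.80 for Lat. All 3 mTO-iTreg libraries were above all 3 TGFβ-iTreg libraries for Cd4, Cd2 and Zap70, and below them for Lat. The genes were chosen by that same call, so this separation is no further support. The rise of Cd4 in mTO-iTreg cells against day 0 was lost under 6 of 22 alternatives. The changes of Zap70 and Lat in TGFβ-iTreg cells against day 0 were not called themselves, and that of Zap70 turned to 0.050 with equal totals.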

How the results depend on the processing

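Of 660 recomputed values (30 results of the 10 genes under 22 alternatives), 619 kept their direction and call, 35 lost the call, 4 gained it and 2 changed sign. The sign changes were Zap70 in TGFβ-iTreg against day 0 with equal totals (0.050) and Cd5 in mTO-iTreg against TGFβ-iTreg without TGFβ-iTreg replicate 2 (0.064, with -0.28 to 0.064 without any 1 library). Among further genes, Ptprc in mTO-iTreg against day 0 turned to 0.068 with equal totals and 0.040 with quantile normalization, Lcp2 in TGFβ-iTreg against day 0 to 0.038 with equal totals, and Plcg1 in mTO-iTreg against TGFβ-iTreg to -0.26 with quantile normalization, -0.014 without mTO-iTreg replicate 2 and -0.14 without TGFβ-iTreg replicate 3 (-0.14 to 0.70 without 1 library).

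The 7 members lower in TGFβ-iTreg cells than at day 0 were 4 with equal totals, with no variance trend and without the shallowest day 0 and TGFβ-iTreg libraries (4 to 8 without 1 library). Over all tested rows, lower calls in that comparison also fell from 966 as reported. They were 582 with equal totals, 663 with no variance trend and 530 without the shallowest libraries. The 3 members lower in mTO-iTreg than in TGFβ-iTreg cells were 1 with no variance trend (3 to 4 without 1 library). For all tested rows, lower calls between these groups were 1292 as reported and 1003 with no variance trend. The 5 further pathway genes higher in mTO-iTreg cells than at day 0 were 3 with no filter, TMM factors, quantile normalization, 2 groups only or no variance trend, 12 with equal totals and 10 when scaled without mitochondrial genes and Rn45s (3 to 5 without 1 library), and the 21 lower were 13 to 21 without 1 library. Higher calls over all tested rows in that comparison were 2126 as reported and 2739 with equal totals. They were 2449 when scaled without mitochondrial genes and Rn45s, and 1889 with no variance trend. The 17 lower in TGFβ-iTreg cells were 9 with equal totals, 11 without mitochondrial genes and Rn45s, 10 with no variance trend and 10 without the shallowest libraries (11 to 17 without 1 library). When scaled without mitochondrial genes and Rn45s, lower calls over all tested rows there were 719, beside 966 as reported. The Cd3d to Cd3e log2 difference of TGFβ-iTreg against day 0 was -0.13 to 0.0065 without 1 library. The cause was not tested.

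With equal totals, the median over all tested rows in mTO-iTreg against day 0 was a log2 change of 0.31 (0.09 as reported) and the share higher among calls was 70.6% (57.1% as reported), and scaling without mitochondrial genes and Rn45s gave 0.21 and 64.9%. For TGFβ-iTreg against day 0 the shares were 75.5% and 65.7% (52.6% as reported). The replicate block left the members' counts at 3 higher and 5 lower, 0 and 7, and 4 and 3 in the 3 comparisons and ended 1 named call (Nck2 in mTO-iTreg against day 0, adjusted p = 0.062 by limma). The planned edgeR and DESeq2 tests were not run; limma-voom on recovered counts, leaving out the shallowest libraries and the 3 further ratios were added after seeing the data. The values of Plcg1, Tec, Nck2 and Trat1 rest on few counts per library (Tec had 28, 2 and 5 in mTO-iTreg replicates 1, 2 and 3).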
